A study of Mus musculus with 6 samples.

Results

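The genes described here are 41 members of the hypoxia response and of glycolysis, chosen by gene symbol from a mouse RNA sequencing table of 49671 genes. All 41 symbols were found, each on 1 row, and 38 had a mean of at least 20 over the 6 libraries, which was the level required for testing. The libraries came from LKPR EPCAM+ cells, an epithelial line isolated by sorting from a skin squamous cell carcinoma of the mouse. Its genotype combines the Lgr5CreER driver, a Cre under control of the stem cell gene Lgr5, with the KrasLSL-G12D oncogene, p53fl/fl and the Rosa26-YFP+/+ reporter, and all groups share it. Lentivirus made from pLKO.1-puro delivered the empty vector (TRC1) or knocked down either Ntn1, the gene of the secreted guidance protein netrin-1, or Unc5b, which encodes one of its receptors, and puromycin resistance was tested afterwards. Each of the 3 groups had 2 libraries, called controls below where they carried the empty vector and made from living YFP and EPCAM positive cells sorted after 6 days of culture.

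Cells sense oxygen through prolyl hydroxylases, which mark the alpha subunits of the hypoxia-inducible factors (HIF) for destruction while oxygen is present. When oxygen falls, the alpha subunits persist, pair with ARNT proteins and bind short DNA elements with the core ACGTG or GCGTG, raising genes for glucose uptake, glycolysis, acid export, mitophagy and collagen modification. Glycolysis turns glucose into pyruvate and lactate, and carcinoma cells often run it at a high rate even with oxygen at hand. The labels give no oxygen tension.

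Values are the authors' levels scaled to a total of 20000000 per library, and depth estimated from the spacing of low values was 6540000 to 10200000 reads per library, so that 3 reads correspond to a level of 5.9 to 9.17. The labels do not say whether the 2 libraries of a group were grown apart, and p-values here reflect only how far such libraries differ, a spread that may be technical. Ntn1 was at 1566 and 2588 in controls 1 and 2, at 359 and 431 under Ntn1 knock-down and at 1319 and 771 under Unc5b knock-down. Unc5b was at 1527 and 1573, at 2311 and 2382, and at 419 and 352 in the same order, so each targeted gene was lowest in the libraries labelled with its knock-down. Of the epithelial markers, 10 of 10 reached the level for testing in these cells, with a summed level of 62002 to 64816 in controls, 77106 to 82148 under Ntn1 knock-down and 64705 to 69861 under Unc5b knock-down. They did not move together under Ntn1 knock-down, where 3 rose (Krt5, Krt18 and Itga6) and 2 fell, Cldn4 from 7837 and 8145 to 5176 and 4850 and Trp63 from 94 and 96 to 33 and 31. The immune gene Ptprc did not exceed 5 in any library, Lyz2 and Adgre1 were at 0 in all 6, and of 8 immune markers only Csf1r and Cd68 were tested. The summed immune level was 1300 to 1544, 456 to 571 and 1098 to 1660 in the 3 groups. Csf1r was most of it, at 1213 and 1511, 347 and 443, and 1569 and 1003, while Cd68 was at 81 and 25, 107 and 122, and 83 and 90. Of 8 fibroblast markers 2 were tested, with a summed level of 136 to 137, 211 to 311 and 139 to 237. Of 6 endothelial markers 2 were tested, Pecam1 and Cdh5, with a summed level of 96 to 108, 178 to 223 and 88 to 100. Cdh5 made this difference, at 0 in both controls, 86 and 113 under Ntn1 knock-down and 2 and 0 under Unc5b knock-down, while Pecam1 was at 88 to 107 in all libraries and Emcn at 0. The level for testing was reached by Cdh5 only through the Ntn1 knock-down libraries. Ribosomal protein genes held 1.81% and 1.85% of the total under Ntn1 knock-down against 2.22% and 2.37% in controls and 2.18% and 2.31% under Unc5b knock-down. The part of these markers and shares in the results below was not tested. In bulk RNA, fewer cells of a type and less RNA per cell cannot be told apart.

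Promoter windows, 250 bases before to 50 after an annotated start, are shown for 6 members whose levels differed between the groups, because the HIF core elements ACGTG and GCGTG are what the pathway's factors bind. The sequences are from RefSeq, build GRCm38.p6, and 36 of the 41 members had a window. Capitals mark every ACGTG or GCGTG on either strand. A palindromic CACGTG, also the core of the E-box bound by BHLHE40 and MYC proteins, counts as an ACGTG on both strands.
Egln3 (chr12:54203825-54204124, minus strand): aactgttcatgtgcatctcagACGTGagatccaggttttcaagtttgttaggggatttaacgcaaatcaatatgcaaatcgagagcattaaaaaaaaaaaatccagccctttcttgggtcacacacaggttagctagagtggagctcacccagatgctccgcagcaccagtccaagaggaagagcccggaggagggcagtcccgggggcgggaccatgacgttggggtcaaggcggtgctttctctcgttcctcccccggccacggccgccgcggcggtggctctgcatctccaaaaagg
Pdk1 (chr2:71872974-71873273, plus strand): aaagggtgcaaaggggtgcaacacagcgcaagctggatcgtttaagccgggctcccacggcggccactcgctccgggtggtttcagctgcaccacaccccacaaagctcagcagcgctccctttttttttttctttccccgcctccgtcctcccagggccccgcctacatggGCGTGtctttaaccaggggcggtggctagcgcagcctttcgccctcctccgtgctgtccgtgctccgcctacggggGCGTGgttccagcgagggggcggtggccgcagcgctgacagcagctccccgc
Hk2 (chr6:82774405-82774704, minus strand): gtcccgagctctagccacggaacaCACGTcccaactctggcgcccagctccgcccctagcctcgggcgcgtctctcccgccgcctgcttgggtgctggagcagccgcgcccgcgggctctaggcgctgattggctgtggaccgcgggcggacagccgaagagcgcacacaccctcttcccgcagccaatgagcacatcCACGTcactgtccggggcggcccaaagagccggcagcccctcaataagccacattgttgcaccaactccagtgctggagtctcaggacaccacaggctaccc
Pfkp (chr13:6648722-6649021, minus strand): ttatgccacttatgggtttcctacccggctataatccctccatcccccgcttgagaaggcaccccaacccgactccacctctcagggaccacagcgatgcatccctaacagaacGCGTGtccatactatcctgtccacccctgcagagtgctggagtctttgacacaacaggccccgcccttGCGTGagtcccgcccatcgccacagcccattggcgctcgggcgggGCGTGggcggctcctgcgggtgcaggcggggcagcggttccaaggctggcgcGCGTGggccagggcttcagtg
Pfkfb3 (chr2:11502041-11502340, minus strand): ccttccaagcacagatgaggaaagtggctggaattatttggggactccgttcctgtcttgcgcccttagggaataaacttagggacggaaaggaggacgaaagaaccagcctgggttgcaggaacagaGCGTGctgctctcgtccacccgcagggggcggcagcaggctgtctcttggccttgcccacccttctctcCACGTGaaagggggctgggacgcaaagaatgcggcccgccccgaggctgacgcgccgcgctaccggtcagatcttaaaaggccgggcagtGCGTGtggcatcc
Bnip3 (chr7:138909457-138909756, minus strand): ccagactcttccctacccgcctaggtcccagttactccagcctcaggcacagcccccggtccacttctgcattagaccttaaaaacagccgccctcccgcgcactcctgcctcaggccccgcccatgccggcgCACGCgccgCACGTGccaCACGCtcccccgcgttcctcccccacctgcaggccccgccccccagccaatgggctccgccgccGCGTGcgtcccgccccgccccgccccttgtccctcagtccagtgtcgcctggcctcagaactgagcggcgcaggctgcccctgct

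The Bnip3 window holds 2 ACGTG and 3 GCGTG matches, all upstream of the start. The Pfkp window holds 4 GCGTG matches, the Pdk1 window 2 GCGTG, the Hk2 window 2 ACGTG and the Egln3 window 1 ACGTG. Pfkfb3 and Pdk1 each have 2 annotated windows, and the printed window is the one with more matches. Of the 36 members with a window, 32 had ACGTG or GCGTG in at least 1 window (88.9%), beside 12628 of the 27025 genes for which RefSeq windows were given (46.7%). Several members are textbook HIF targets, base composition was not matched, and a match is not a bound site. The 36 members had 51 windows and the 27025 genes 32851, and windows per gene were not matched. The 27025 genes were not limited to those expressed in these cells. Car12, Gpi1, Tpi1 and Eno2 had no match in their windows.

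Under Ntn1 knock-down against controls, 6 of the 38 tested members rose and 3 fell. The risers were Egln3, Car12, Hk1, Hk2, Ndrg1 and P4ha1, and Pdk1, Bhlhe40 and Aldoc fell. That is 23.7% of the members, beside 15.1% of all 15330 tested genes called in either direction, 8.04% called higher and 7.06% called lower. Under Unc5b knock-down 1 member rose, Hk2, and 5 fell, namely Pfkp, Pfkfb3, Egln3, Aldoc and Bnip3. That is 15.8% of the members, beside 12% of all genes, 5.9% higher and 6.07% lower, so the share of members called lies close to the background in this comparison. The median log2 difference of the members was 0.11 under Ntn1 knock-down and -0.10 under Unc5b knock-down, beside -0.02 and 0.04 for all genes. A gene was called at an adjusted p under 0.05 from limma, a linear model fitted to all tested genes on log2(value + 5). Both comparisons use the same control libraries. The 38 tested members are not a fair sample for counts, since Car12 and Aldoc, for example, passed the required mean only through the group where they were high.

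Over both comparisons 12 members were called, and 26 of the 38 tested were called in none. Hk2 rose and Aldoc fell in both knock-downs, and Egln3 rose under Ntn1 knock-down and fell under Unc5b knock-down. The count of members called higher under Ntn1 knock-down was 0 when Ntn1 knock-down library 1 was left out, with 10 at an unadjusted p under 0.05 in limma, and 1 when library 2 was. The count called lower under Unc5b knock-down was 2 without control library 2 and 2 without any single knock-down library of either kind. A group left with 1 library was assumed to vary like the others.

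**Figure D1:**
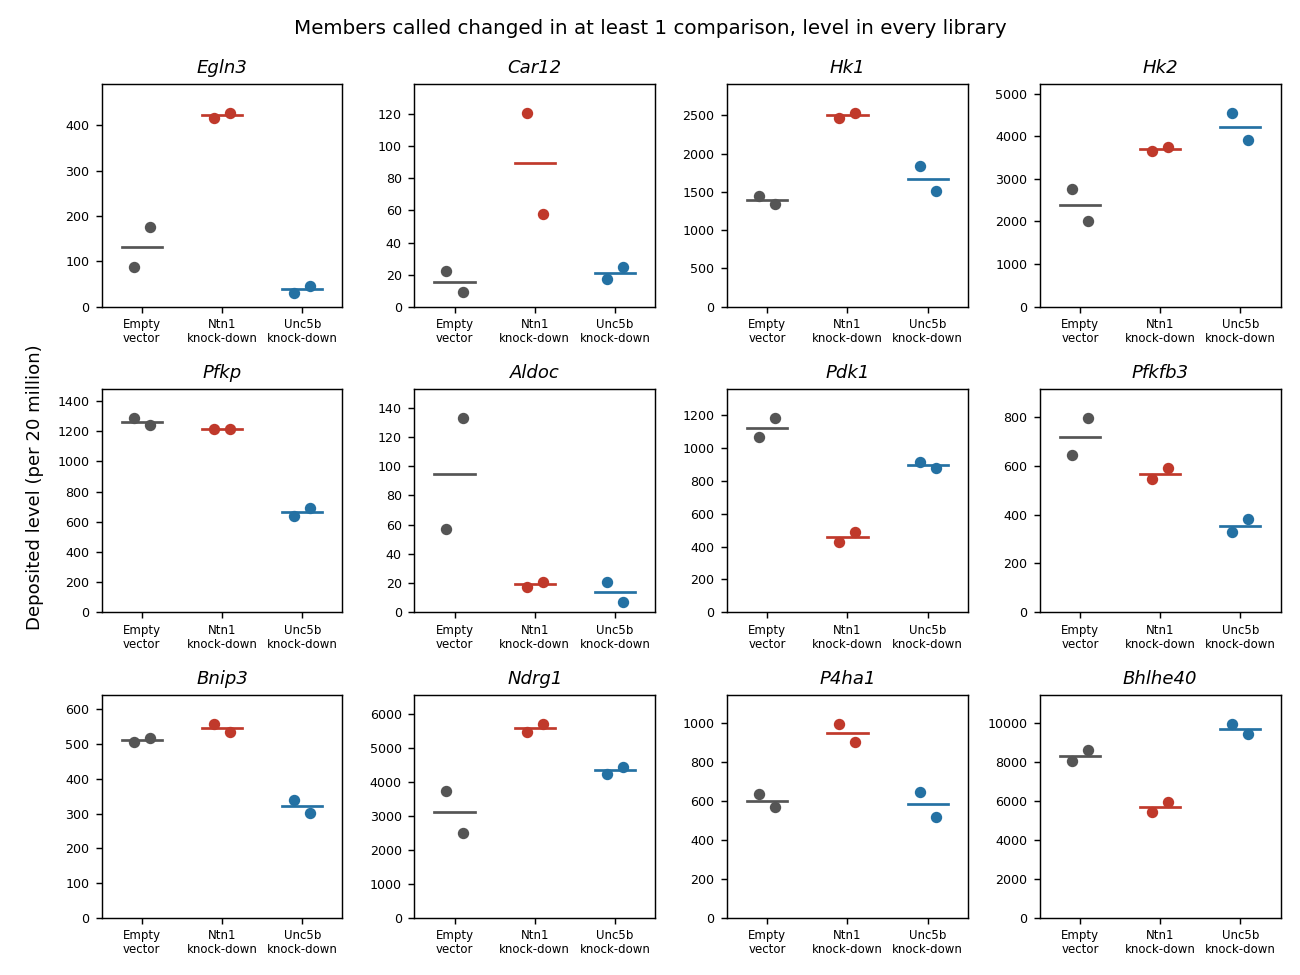
Level in every library (per 20000000, as deposited) of the 12 members called changed in at least 1 comparison; points are libraries, short lines are means of 2 libraries, and each vertical axis starts at 0. Egln3 is highest under Ntn1 knock-down, at 416 and 428, and lowest under Unc5b knock-down, at 30 and 46, while Hk2 lies above controls in both knock-downs.

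Among the oxygen sensors, Egln3 was the member with the widest spread between groups. It encodes a prolyl hydroxylase that is itself a well-known HIF target, and lies on the minus strand of chromosome 12, 54178981 to 54203860 (GRCm38). Its level was 88 and 176 in controls, 416 and 428 under Ntn1 knock-down and 30 and 46 under Unc5b knock-down. No library of any group overlapped those of another. Egln3 was 3.2-fold higher than controls under Ntn1 knock-down (log2 difference 1.72 ± 0.34 SE, adjusted p = 0.0124) and 3.47-fold lower under Unc5b knock-down (-1.62 ± 0.34, adjusted p = 0.0192). The knock-downs differed from each other 11.1-fold (3.34 ± 0.34, adjusted p = 0.00182). The rise no longer passed when Ntn1 knock-down library 1 (adjusted p = 0.105) or 2 (0.113) was left out, and the difference between knock-downs likewise (0.0586 and 0.0538). The fall under Unc5b knock-down lost its call without control library 2 (0.0586), Ntn1 knock-down library 1 (0.0604) or 2 (0.0598) and Unc5b knock-down library 1 (0.105) or 2 (0.0528).

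Egln1, the prolyl hydroxylase that carries most of the turnover of HIF-1 alpha in normal oxygen, was at 1871 and 1667 in controls, 1415 and 1355 under Ntn1 knock-down and 1404 and 1591 under Unc5b knock-down. Both knock-down groups lay below the controls, and the difference did not pass under Ntn1 knock-down (-0.35 ± 0.13, adjusted p = 0.103). Per kilobase of annotated exon, Egln3 made up 5.97% and 12.5% of the 2 hydroxylases in controls, 28.4% and 29.9% under Ntn1 knock-down and 2.8% and 3.76% under Unc5b knock-down. Egln1 was therefore the larger share in every library. Hif1a, which encodes the oxygen-labile HIF-1 alpha subunit, was at 4487 and 3981 in controls, 5424 and 5296 under Ntn1 knock-down and 5258 and 5056 under Unc5b knock-down. Both knock-down groups lay above controls without overlap, but neither difference passed (0.34 ± 0.11, adjusted p = 0.0671, and 0.29 ± 0.11, adjusted p = 0.129). Without control library 1 the difference of Hif1a under Ntn1 knock-down passed (adjusted p = 0.0339). Epas1, which encodes HIF-2 alpha, ranged from 215 to 707 over the 6 libraries, and both of those extremes lay under Unc5b knock-down. The protein of HIF-1 alpha is controlled mainly by its stability, which RNA levels do not show.

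The transporters and carbonic anhydrases held 1 called member. Car12, a membrane carbonic anhydrase that hydrates carbon dioxide at the cell surface (chromosome 9, 66713686 to 66766845, plus strand), was at 22 and 9 in controls, 121 and 58 under Ntn1 knock-down and 17 and 25 under Unc5b knock-down. Both Ntn1 knock-down libraries lay above all others, and they were far apart from each other. Car12 passed the required mean only through these libraries, so its test followed a filter on the same values. The level of 9 lay near the 3-read level of control library 2, 6.86, so the size of a difference from controls is uncertain. Car12 rose 5.77-fold (2.20 ± 0.48, adjusted p = 0.0178), but not without control library 2 (0.0588) or Ntn1 knock-down library 1 (0.168). Its relative Car9, the carbonic anhydrase most used as a hypoxia marker, was at 16 to 34 in all libraries and overlapped the other groups under Unc5b knock-down. Slc2a1, the main glucose transporter of epithelial cells, was at 1729 to 2325 and overlapped between the groups, whereas Slc2a3, the high-affinity transporter of neurons, was listed at 0 in 5 libraries and at 2 in control library 2. The lactate transporter gene Slc16a1 was at 3443 to 4341 and Slc16a3, a lactate exporter that HIF induces, at 30 to 76. None of the 4 other tested members of this group passed in any comparison, with log2 differences from controls of -0.37 to 0.43 under Ntn1 knock-down and -0.09 to 0.13 under Unc5b knock-down.

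Among 17 glycolytic enzyme genes, both hexokinase genes rose under Ntn1 knock-down. Hexokinases phosphorylate glucose on entry. Hk1 (chromosome 10, 62268855 to 62379908, minus strand) was at 1442 and 1338 in controls, 2470 and 2535 under Ntn1 knock-down and 1832 and 1513 under Unc5b knock-down. The Ntn1 knock-down libraries lay above all others. Hk1 rose 1.8-fold (0.85 ± 0.13, adjusted p = 0.00412), and the Unc5b knock-down did not pass (0.26 ± 0.13, adjusted p = 0.243). Hk2, the inducible form linked to tumour growth (chromosome 6, 82725025 to 82774454, minus strand), was at 2763 and 2014, at 3662 and 3749 and at 4550 and 3903 in the same order. Every knock-down library lay above both controls. Hk2 rose 1.55-fold under Ntn1 knock-down (0.65 ± 0.16, adjusted p = 0.0289) and 1.77-fold under Unc5b knock-down (0.84 ± 0.16, adjusted p = 0.0127). Per kilobase of exon, Hk2 was 68.3% to 73.3% of the pair in controls, 67.9% in both Ntn1 knock-down libraries and 78% and 78.7% under Unc5b knock-down. Without Ntn1 knock-down library 1 or 2 the rise of Hk1 (adjusted p = 0.064 and 0.0688) and that of Hk2 under Ntn1 knock-down (0.175 and 0.195) lost their calls. The latter also lost its call without control library 2 (0.0735), and the rise of Hk2 under Unc5b knock-down without Unc5b knock-down library 1 (0.0802).

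At the phosphofructokinase step, the committed step of glycolysis, Pfkp fell under Unc5b knock-down. Pfkp, the platelet form (chromosome 13, 6579768 to 6648777, minus strand), was at 1287 and 1239 in controls, 1213 and 1217 under Ntn1 knock-down and 641 and 688 under Unc5b knock-down. The Unc5b knock-down libraries lay far below the other 4, and the fall was 1.9-fold (-0.92 ± 0.12, adjusted p = 0.00283). This call held in all 15 alternative settings, at adjusted p = 0.00223 to 0.0224. The liver form Pfkl was at 828 to 1393 and the muscle form Pfkm at 477 to 773, and neither passed in any comparison. Per kilobase of exon, Pfkp was 19.5% and 20.6% of the 3 forms in controls, 19.4% and 21.3% under Ntn1 knock-down and 13.1% and 14.6% under Unc5b knock-down. Shares per kilobase rest on the union of all annotated exons, which can be longer than the transcripts these cells use.

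Aldoc, the brain form of aldolase (chromosome 11, 78322968 to 78327781, plus strand), fell in both knock-downs from a low level. It was at 57 and 133 in controls, 17 and 21 under Ntn1 knock-down and 21 and 7 under Unc5b knock-down. Both controls lay above all others, and they differed from each other by more than the knock-down groups did. The falls were 5-fold (-1.95 ± 0.51, adjusted p = 0.0373) and 6.79-fold (-2.39 ± 0.51, adjusted p = 0.0203). The level of 7 lay at about the 3-read level of Unc5b knock-down library 2, 6.95, so the size of the latter fall is uncertain. Aldoc passed the required mean only through the controls, so these tests followed a filter on the same values. The calls were lost without control library 2 (adjusted p = 0.161 and 0.086), without Ntn1 knock-down library 1 (0.204 and 0.0536) or 2 (0.158 and 0.0532), and, under Unc5b knock-down, without its library 2 (0.133). Aldoa, the aldolase of most tissues, was at 5763 to 7866 and was not called in any comparison, so the fall of Aldoc concerned a minor part of aldolase RNA, at 29.1 per kilobase of exon in controls against 2274 for Aldoa.

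The core of the pathway was abundant and was not called. Per kilobase of exon, averaged over the 6 libraries, Pkm was highest at 4365, followed by Ldha at 3001, Gapdh at 2690, Aldoa at 2314, Eno1 at 1897, Pgk1 at 1738 and Tpi1 at 1397. Pkm encodes pyruvate kinase, whose splice forms the table does not separate, and Ldha encodes the lactate dehydrogenase subunit that favours lactate. Pgam1 and Gpi1, at 665 and 628 per kilobase, were lower. The 11 enzyme genes that were tested and never called had log2 differences of -0.38 to 0.28 under Ntn1 knock-down and -0.38 to 0.13 under Unc5b knock-down, with adjusted p of at least 0.193 and 0.217. Eno2, the neuronal enolase, at 2 to 27, and Ldhb, the subunit that favours pyruvate, at 11 to 23, were under the required mean and were not tested. The summed level of the 17 genes was 89150 and 68824 in controls, 90823 and 86141 under Ntn1 knock-down and 72586 and 78908 under Unc5b knock-down. The controls spanned nearly the whole range of the knock-downs. Gapdh values are uncertain, since 144 other annotated genes share at least 95% identity with it over 100 bases or more, and 141 of these in the table summed to 3533 to 4758 per library, 37.5% of the level of Gapdh. Eno1 had 3 such copies at 838 to 1395 in all.

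**Figure D2:**
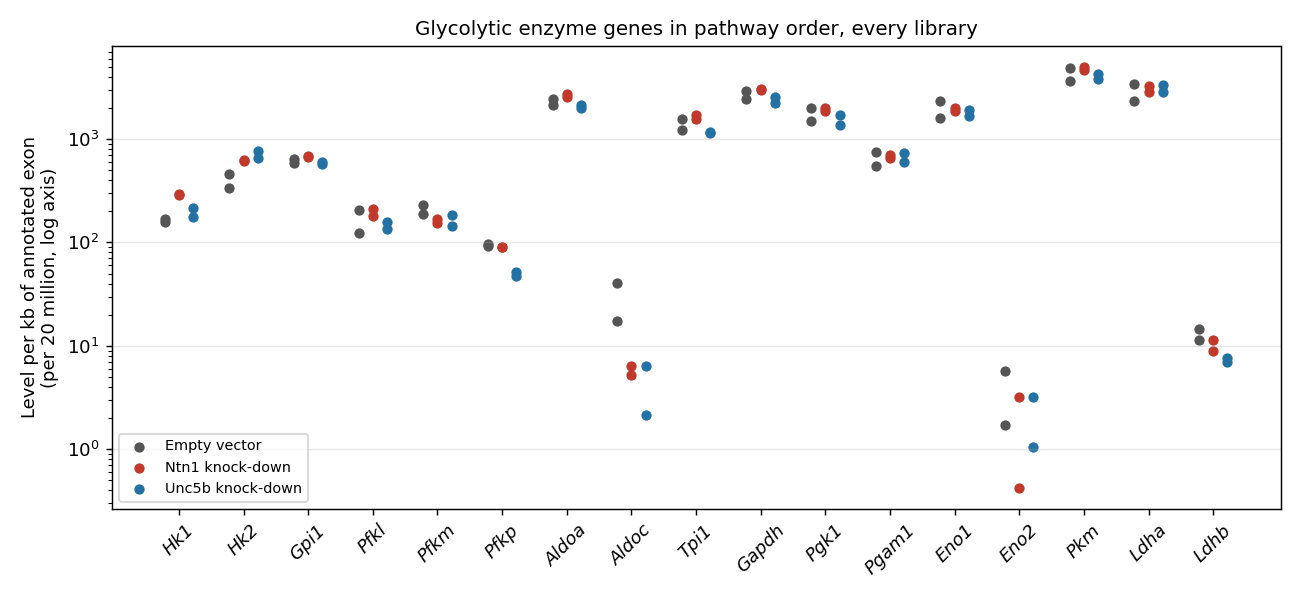
Level per kilobase of annotated exon (per 20000000, log axis) of the 17 glycolytic enzyme genes in pathway order; each point is 1 library, coloured by group. Pkm, Ldha and Gapdh are highest. For Pgam1, Eno1, Eno2 and Ldha the groups overlap in every comparison. With 2 libraries a group, a lack of overlap is by itself no sign of a difference, and its share over all genes was not taken. Pfkp under Unc5b knock-down and Aldoc in both knock-downs lie below controls.

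The regulators of flux set how fast glucose carbon enters and leaves glycolysis. Pdk1 encodes a kinase that shuts off pyruvate dehydrogenase and so keeps pyruvate out of the mitochondrial cycle (chromosome 2, 71873224 to 71903858, plus strand). It was at 1065 and 1182 in controls, 430 and 489 under Ntn1 knock-down and 917 and 880 under Unc5b knock-down. The Ntn1 knock-down libraries lay far below the other 4. Pdk1 fell 2.45-fold (-1.28 ± 0.14, adjusted p = 0.000911), a call that held in all 15 alternative settings at adjusted p = 0.000506 to 0.0253, and did not pass under Unc5b knock-down (-0.32 ± 0.14, adjusted p = 0.186). Pdk3, a related kinase gene, was at 1403 and 1040, at 1006 and 795 and at 761 and 950, and did not pass. Pfkfb3 encodes the enzyme that makes the main activator of phosphofructokinase (chromosome 2, 11471433 to 11554077, minus strand). It was at 645 and 796 in controls, 547 and 590 under Ntn1 knock-down and 327 and 384 under Unc5b knock-down. The 3 groups did not overlap. Pfkfb3 fell 2.03-fold under Unc5b knock-down (-1.01 ± 0.17, adjusted p = 0.00746), and without Unc5b knock-down library 1 it just missed the threshold (0.0506). Its difference under Ntn1 knock-down missed the threshold (-0.33 ± 0.17, adjusted p = 0.229). Pfkfb4, a second enzyme of this kind, was at 96 and 114, at 62 and 107 and at 220 and 102, and its 1.53-fold higher mean under Unc5b knock-down came from library 1 and did not pass (adjusted p = 0.465). Without that library its log2 difference was -0.04.

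Of the 10 other hypoxia targets, Ndrg1 and P4ha1 rose under Ntn1 knock-down, Bhlhe40 fell there, and Bnip3 fell under Unc5b knock-down. Ndrg1, a differentiation and stress gene (chromosome 15, 66929318 to 66969640, minus strand), was at 3728 and 2479 in controls, 5447 and 5700 under Ntn1 knock-down and 4223 and 4433 under Unc5b knock-down. The 3 groups did not overlap. Ndrg1 rose 1.8-fold under Ntn1 knock-down (0.87 ± 0.18, adjusted p = 0.0129) but not without its library 1 (0.106) or 2 (0.128). Its difference under Unc5b knock-down missed the threshold (0.51 ± 0.18, adjusted p = 0.104), but passed it without control library 1 (0.80 ± 0.12, adjusted p = 0.00302). P4ha1 encodes the catalytic subunit of a collagen prolyl hydroxylase (chromosome 10, 59323296 to 59373304, plus strand). It was at 633 and 569, at 996 and 902 and at 645 and 519 in the 3 groups in the same order. Only the Ntn1 knock-down stood apart, 1.58-fold higher than controls (0.65 ± 0.16, adjusted p = 0.0275), and the call was lost without control library 2 (0.076) and without Ntn1 knock-down library 1 (0.22) or 2 (0.138). P4ha2, which encodes the sister subunit, was at 531 to 1049 and did not pass.

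Bhlhe40, a repressor that HIF and the circadian clock induce (chromosome 6, 108660629 to 108666925, plus strand), was at 8048 and 8586 in controls, 5417 and 5960 under Ntn1 knock-down and 9958 and 9446 under Unc5b knock-down. The groups did not overlap. It fell 1.46-fold under Ntn1 knock-down (-0.55 ± 0.11, adjusted p = 0.0107), but not without its library 1 (0.146) or 2 (0.0801), and did not pass under Unc5b knock-down (0.22 ± 0.11, adjusted p = 0.221). Bnip3, a receptor for the removal of mitochondria (chromosome 7, 138890836 to 138909519, minus strand), was at 505 and 519, at 559 and 535 and at 340 and 301. The Unc5b knock-down libraries lay below the other 4, and the fall was 1.6-fold (-0.67 ± 0.15, adjusted p = 0.0254). This call was lost without any single library except control library 1, at adjusted p = 0.065 without control library 2, 0.0781 and 0.0769 without Ntn1 knock-down library 1 or 2, and 0.063 and 0.155 without Unc5b knock-down library 1 or 2. The relative Bnip3l was at 2249 to 3174, Ddit4, an inhibitor of mTOR signalling, at 1008 to 1407, the histone demethylase gene Kdm3a at 1862 to 2636 and the mitochondrial gene Higd1a at 162 to 308. Ankrd37 was at 53 and 59 in controls, 36 and 43 under Ntn1 knock-down and 36 and 35 under Unc5b knock-down, a mean 1.58-fold lower in the last group that did not pass (adjusted p = 0.249).

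**Figure D3:**
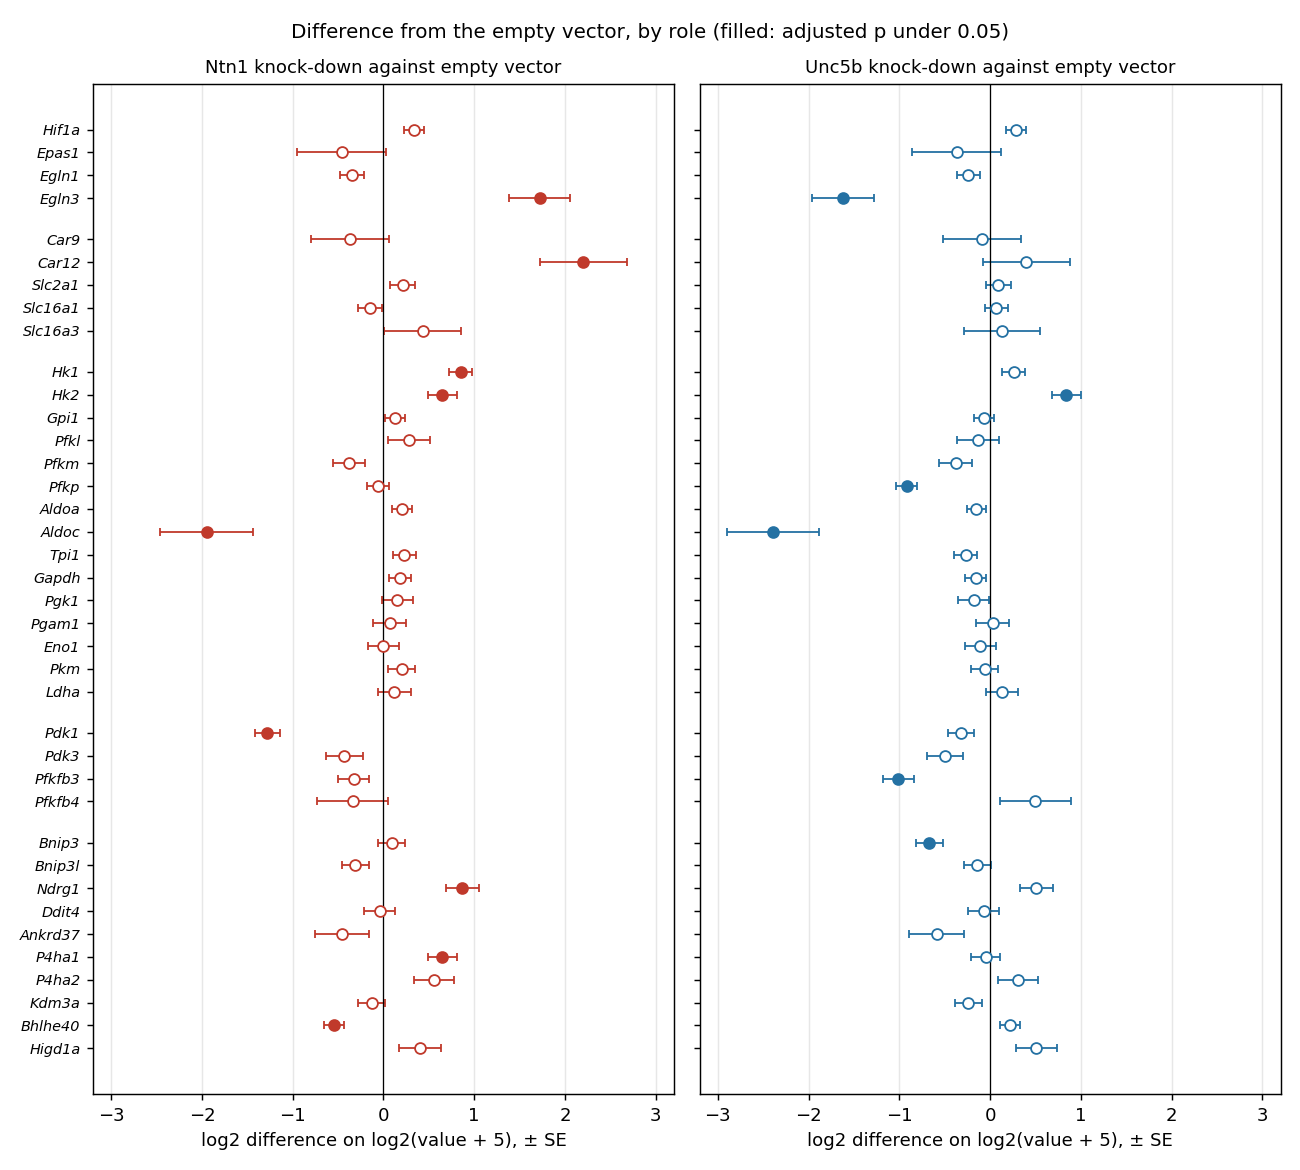
Log2 difference from controls (log2(value + 5), ± SE from limma) of the 38 tested members, grouped by role from the HIF subunits at the top to other hypoxia targets at the bottom; the left panel is the Ntn1 and the right panel the Unc5b knock-down, and filled points passed an adjusted p of 0.05. Egln3 lies at 1.72 on the left and at -1.62 on the right, and most glycolytic enzymes lie within 0.4 of 0.

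Some members share sequence with neighbours, and the strand setting of the counting is not given. Exons of 16 members overlap those of another gene, among them Ndrg1, Hk1, Pfkp, Bhlhe40 and Bnip3. Gm45507, which overlaps Bnip3 on the other strand, was at 295 and 293 in controls, 316 and 257 under Ntn1 knock-down and 180 and 146 under Unc5b knock-down, so it was lower in the same libraries as Bnip3. Gm17035, which overlaps Ndrg1, was at 751 and 519, at 1087 and 1040 and at 829 and 822, in the same order as Ndrg1. The gene 0610040F04Rik, which overlaps Bhlhe40 on the other strand, was at 702 and 759, at 523 and 602 and at 801 and 811, in the same order as Bhlhe40. Reads of such pairs cannot be told apart here. Pitrm1, whose exons overlap 748 bases of Pfkp, was at 2871 and 2600, at 3983 and 3642 and at 2915 and 3201, and was not lower under Unc5b knock-down.

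The direct comparison sets the libraries labelled with the ligand knock-down against those labelled with the receptor knock-down. In each, the mean of the other targeted gene also differed from controls. Unc5b was 1.51-fold higher under Ntn1 knock-down (limma adjusted p = 0.0193). This call was lost in limma without the variance trend (0.0636), with the replicate block (0.0552) and with no filter (0.0516). It was also lost without Ntn1 knock-down library 1 or 2, where the log2 difference was 0.62 and 0.57. Ntn1 was 1.99-fold lower under Unc5b knock-down, a difference that did not pass (adjusted p = 0.0638). Of the 38 members, 5 were higher in the Ntn1 than under Unc5b knock-down and 2 were lower, 18.4% beside 7.1% of all genes (4.15% higher and 2.95% lower). The higher members were Egln3, Pfkp (1.83-fold, log2 difference 0.87 ± 0.12, adjusted p = 0.00663), Bnip3 (1.71-fold, 0.76 ± 0.15, adjusted p = 0.0227), Hk1 (1.5-fold, 0.59 ± 0.13, adjusted p = 0.034) and P4ha1 (1.63-fold, 0.71 ± 0.16, adjusted p = 0.0356). The lower members were Bhlhe40 (1.71-fold, -0.77 ± 0.11, adjusted p = 0.0058) and Pdk1 (1.96-fold, -0.96 ± 0.14, adjusted p = 0.0072). Pfkfb3 (0.67 ± 0.17, adjusted p = 0.0513), Car12 (1.79 ± 0.48, adjusted p = 0.061) and Tpi1 (0.50 ± 0.13, adjusted p = 0.0626) did not pass, and all 3 passed without control library 1 (0.0251, 0.0294 and 0.0149) or 2 (0.0248, 0.0256 and 0.0143). Ndrg1 also passed then (0.0426 and 0.0411), and 9 members in place of 5 were called higher. Over the 15 tested glycolytic enzymes the median log2 difference was 0.33, with 12 values above 0, beside a median of -0.05 for all genes. The share of all genes above 0 was not taken, and the enzymes were not tested as a set. Aldoc (0.44), 1 of the 15, passed the required mean only through controls. The median was 0.35 with TMM scaling and 0.37 with median-of-ratios scaling. Without Ntn1 knock-down library 1 or library 2, 0 members were called by limma in this comparison in either direction, with 8 and 12 at an unadjusted p under 0.05, and 34 and 52 of all genes were called. The calls of Pfkp then stood at adjusted p = 0.116 and 0.116, of Bnip3 at 0.232 and 0.184, of Hk1 at 0.249 and 0.263, of P4ha1 at 0.291 and 0.204, of Bhlhe40 at 0.121 and 0.0796 and of Pdk1 at 0.122 and 0.0796. Without Unc5b knock-down library 1 or 2, Bnip3 (0.0738 and 0.136), Hk1 (0.0579 and 0.182) and P4ha1 (0.0651 and 0.192) were lost, and Pdk1 without library 1 (0.056).

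Other genes of the pathway, outside the 41, were taken from 3 lists. Beside their counts, 15.1% of all tested genes were called under Ntn1 knock-down and 12% under Unc5b knock-down. The share of all genes at an unadjusted p under 0.05 is not given here. Of 9 HIF pathway regulators, 8 were tested, and 1 rose and 0 fell under Ntn1 knock-down and by limma 0 changed under Unc5b knock-down, where 4 had an unadjusted p under 0.05. The riser was Arnt2, which encodes a partner of the HIF alpha subunits found mainly in neural tissue (chromosome 7, 84246278 to 84410176, minus strand). It was at 10 and 5 in controls, 90 and 80 under Ntn1 knock-down and listed at 0 in both Unc5b knock-down libraries, with a log2 difference of 2.88 ± 0.42 from controls (adjusted p = 0.00348, and 0.0585 without Ntn1 knock-down library 1). Arnt2 reached the required mean only through the Ntn1 knock-down libraries, so its place among the tested regulators is no support for their count. Its level of 5 lay under the 3-read level of control library 2, 6.86, so the size of its rise is uncertain. The common partner gene Arnt was at 1540 to 2088 and Vhl, which encodes the ligase that destroys HIF alpha, at 347 to 434.

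Of 29 other hypoxia targets, 23 were tested. By limma 3 rose and 0 fell under Ntn1 knock-down, while 0 rose and 3 fell under Unc5b knock-down. In either direction these counts lie close to the shares of all genes called, 15.1% and 12%. In each of these comparisons 7 had an unadjusted p under 0.05. Lox, which encodes lysyl oxidase, a cross-linker of collagen, showed the same order of groups as Egln3. It was at 71 and 82 in controls, 252 and 245 under Ntn1 knock-down and 13 and 5 under Unc5b knock-down. The level of 5 lay under the 3-read level of that library, 6.95, so the size of the fall is uncertain. Lox rose 3.25-fold under Ntn1 knock-down (1.64 ± 0.34, adjusted p = 0.0145, and 0.124 and 0.116 without Ntn1 knock-down library 1 or 2) and fell 8.5-fold under Unc5b knock-down (-2.60 ± 0.34, adjusted p = 0.0026). The other risers, named after their values were seen, were the oxidase gene Ero1l of the endoplasmic reticulum, at 1753 and 1724 in controls and 2827 and 2783 under Ntn1 knock-down (1.61-fold, 0.69 ± 0.11, adjusted p = 0.00423), and Fam162a, at 383 and 350 against 711 and 627 (1.83-fold, 0.86 ± 0.15, adjusted p = 0.00759). Both lost their calls without Ntn1 knock-down library 1 (0.0765 and 0.105) or 2 (0.0688 and 0.0613). Vegfa, the vascular growth factor gene, fell 1.42-fold under Unc5b knock-down, from 6273 and 7445 to 5298 and 4357 (-0.51 ± 0.14, adjusted p = 0.0469). Its call was lost without any single library except control library 1, at adjusted p = 0.0525 to 0.254. Kdm4b, a histone demethylase gene, fell from 613 and 624 to 430 and 331 (-0.71 ± 0.18, adjusted p = 0.0378), and lost its call without any single library except Unc5b knock-down library 1, at 0.058 to 0.217.

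Of 34 other glycolysis and pyruvate genes, 22 were tested, and 2 rose and 3 fell under Ntn1 knock-down, while 1 rose and 1 fell under Unc5b knock-down. Of all tested genes, 15.1% and 12% were called in these comparisons. Mpc1, which encodes a subunit of the carrier that brings pyruvate into mitochondria, was at 122 and 103 in controls, 64 and 43 under Ntn1 knock-down and 58 and 65 under Unc5b knock-down. Its fall was 2.1-fold under Ntn1 knock-down (-1.03 ± 0.29, adjusted p = 0.0483), a call that was lost without any single library, at 0.0737 to 0.271. The other genes called, named after their values were seen, were the phosphoglucomutase genes Pgm1 and Pgm2, the pyruvate dehydrogenase genes Pdha1 and Pdhb, and Gpd1l. Pgm1 rose in both knock-downs, from 440 and 432 to 785 and 761 under Ntn1 knock-down (0.82 ± 0.13, adjusted p = 0.0056) and to 737 and 776 under Unc5b knock-down (0.79 ± 0.13, adjusted p = 0.00786). Pgm2 rose under Ntn1 knock-down, from 580 and 649 to 920 and 982 (0.63 ± 0.14, adjusted p = 0.0216). Under Unc5b knock-down it was below both controls, at 447 and 412, and was not called against them. Pdha1, a subunit of the enzyme that PDK1 inhibits, fell under Ntn1 knock-down, from 3178 and 3576 to 2230 and 2281 (-0.58 ± 0.11, adjusted p = 0.0104), and was at 3217 and 3125 under Unc5b knock-down. The kinase gene Pdk1 and its target gene Pdha1 were thus both lower under Ntn1 knock-down. Pdhb fell under Unc5b knock-down, from 1167 and 1198 to 703 and 806 (-0.65 ± 0.13, adjusted p = 0.0161), and was at 913 and 951 under Ntn1 knock-down. Gpd1l fell under Ntn1 knock-down, from 605 and 611 to 361 and 379 (-0.71 ± 0.14, adjusted p = 0.0122). Without Ntn1 knock-down library 1 or 2 the calls of Pgm1 (0.0814 and 0.0694), Pgm2 (0.138 and 0.19), Pdha1 (0.123 and 0.108) and Gpd1l (0.124 and 0.098) under Ntn1 knock-down were lost, and Pgm2 also without control library 1 (0.0523). Under Unc5b knock-down, Pgm1 lost its call without Unc5b knock-down library 2 (0.0655), and Pdhb without Unc5b knock-down library 1 (0.0908) and without Ntn1 knock-down library 1 or 2 (0.0597 and 0.0596). Between the knock-downs, Pgm2 and Tigar were called higher and Pdha1 and Gpd1l lower under Ntn1 knock-down. All of these calls were lost without Ntn1 knock-down library 1, and also without library 2. Tigar, which encodes a phosphatase that slows glycolysis, was at 457 and 321 against 154 and 211, and at 297 and 263 in controls. It was 2.13-fold higher under Ntn1 than under Unc5b knock-down (1.07 ± 0.24, adjusted p = 0.0353). That call was lost without any single knock-down library, at 0.0748 to 0.291. Exons of Arnt2, Lox, Fam162a, Mpc1, Pgm2, Pdha1 and Tigar overlap a gene on the other strand.

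**Figure D4:**
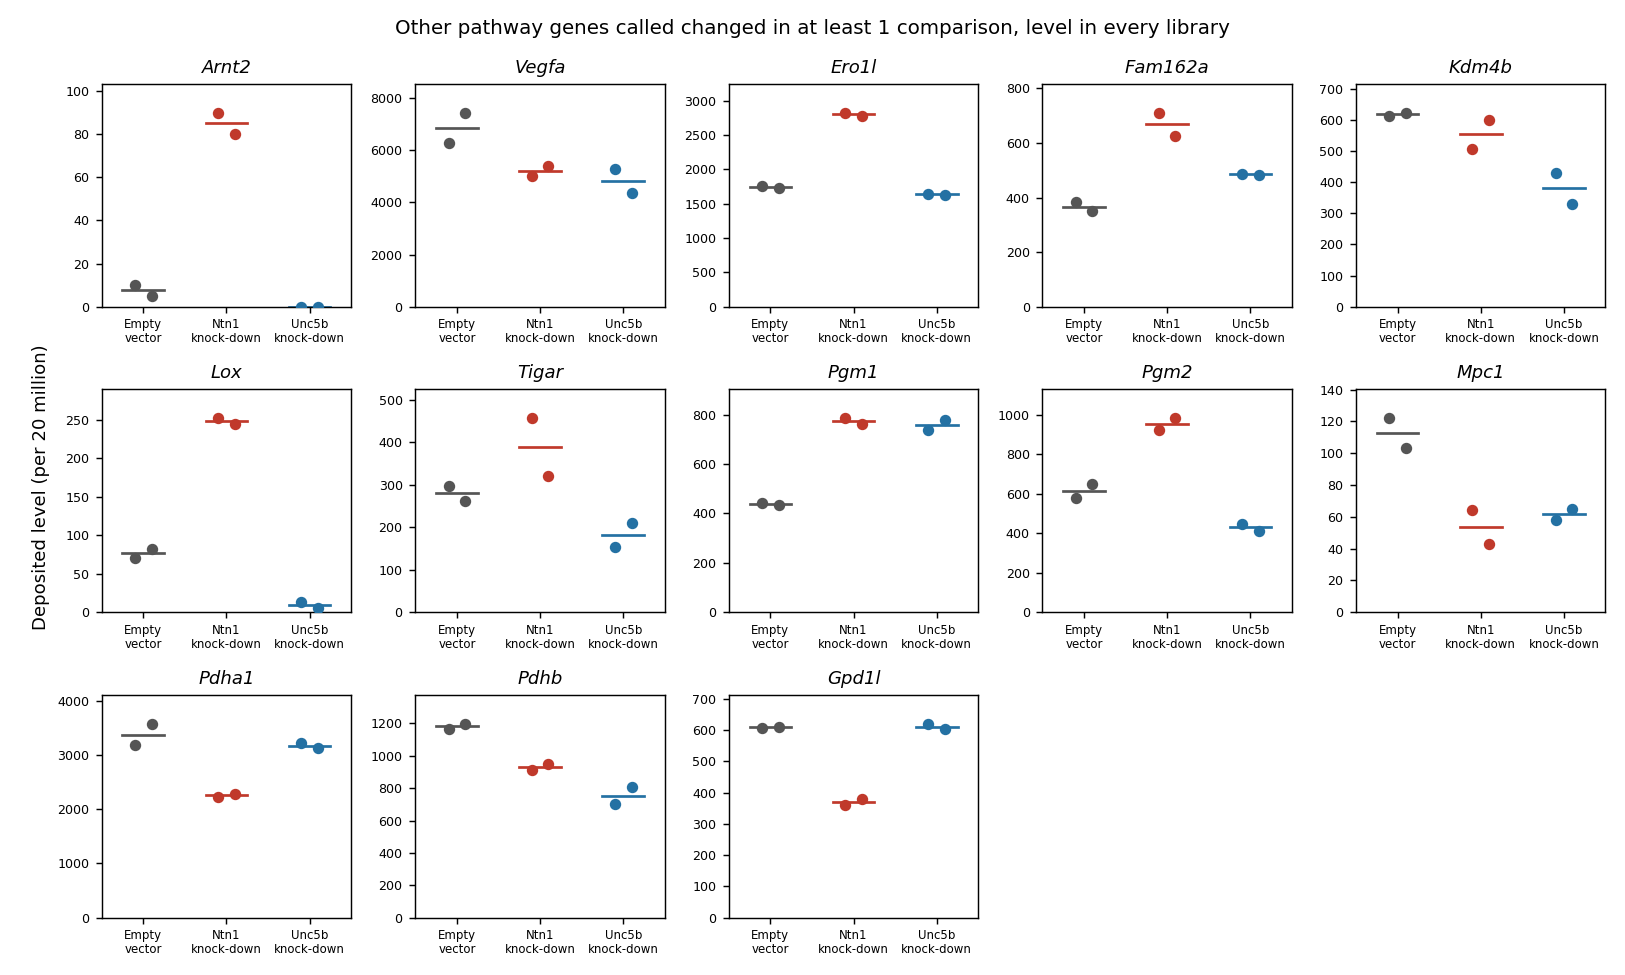
Level in every library (per 20000000, as deposited) of the 13 other pathway genes called in at least 1 comparison; points are libraries, short lines are means of 2 libraries, and each vertical axis starts at 0. Lox and Arnt2 are highest under Ntn1 knock-down and lowest under Unc5b knock-down, and Pdha1 and Gpd1l are lower under Ntn1 knock-down alone.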

How the data were processed

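Gene expression was measured by RNA sequencing with the Ovation Solo system in 6 libraries. The values as deposited were taken as a score: whole numbers with a total near 20000000 in each library, which the authors had therefore scaled and rounded. STAR, Picard and HTSeq and the GRCm38 (mm10) build are listed in the submitters' processing notes; versions, annotation, strand setting and handling of duplicates are, in the sources used here, not given. Depth was estimated from low values up to 150, which were multiples of a fixed step within 0.5 in each library, and floors cover counting error only. A count model was not used.

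The log2(value + 5), which understates the change of low genes, was modelled for 15330 genes with a mean of at least 20, while folds are ratios of group means as deposited. limma (version 3.58.1, R 4.3.3, variance trend, 3 residual and 5.33 prior degrees of freedom) was run on all 6 libraries with a mean per group. Tests were 2-sided, with Benjamini-Hochberg adjustment over all tested genes within each comparison, and the procedure was tested on simulated data. Since 2 libraries against 2 allow an exact permutation p of no less than 0.333, that test was left out. The design also had a test for raw counts, which was not run on these scaled and rounded values. The members and the gene lists were chosen with earlier results of these data known. Members called in any comparison, or at a ratio of at least 1.5 to the empty vector, are given in every library, as are list genes called at a ratio of at least 2. Gene positions and exon lengths are from GENCODE M21 (GRCm38), which held all 41 members, and similar genes were found with blastn 2.17.0.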

Additional observations from a re-analysis of the deposited data

How the results depend on the processing

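In 15 alternative settings, 0 of the 22 calls of members changed direction. Most calls hung on few libraries: leaving out Ntn1 knock-down library 1 cost 18 and library 2 cost 17, while 13 were lost with no filter on low values, 12 without the variance trend, 6 with the replicate number as a block, 2 with only the groups compared, 1 with a pseudocount of 1, and 0 with a pseudocount of 20, a filter at a mean of 50, TMM or median-of-ratios scaling. The filter at a mean of 50 took Car12 and Aldoc, with means of 42 and 42.667, out of the test, so its 0 does not cover their calls. Under that filter members called higher went from 6 to 5 and lower from 3 to 2 for Ntn1. For Unc5b, members called lower went from 5 to 4. Fewer libraries also leave fewer degrees of freedom. At 6540000 to 10200000 reads, Eno2, Ldhb and Slc2a3, with means under 20, were not compared.

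With no filter, members called higher and lower numbered 1 and 2 for Ntn1, 0 and 2 for Unc5b and 2 and 2 between the knock-downs, and all genes called were 1289, 791 and 302; limma then gave 9 members an unadjusted p under 0.05 for Unc5b. Without the variance trend they were 3 and 1, 0 and 3, and 2 and 1, and 1462, 1115 and 454. With only the groups compared, 3 members were lower in the Unc5b knock-down and 9 higher between the knock-downs, and all genes called were 965 and 1856 in these comparisons.

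Replicate numbers are shared by the groups, but nothing says that they pair the libraries, and deviations of same-numbered libraries correlated at 0.160, -0.450 and -0.169. With the replicate block, members called lower in the Unc5b knock-down were 3 and higher between the knock-downs 2, and all genes called were 1465, 1102 and 459 in the 3 comparisons. The other counts of members stayed within 1.5 times under the block.

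Leaving out each library in turn, members called higher ranged from 0 to 8 and lower from 1 to 3 in the Ntn1 knock-down, from 0 to 2 and 2 to 5 in the Unc5b knock-down, and from 0 to 9 and 0 to 2 between the knock-downs. All genes called ranged from 507 to 2769, 680 to 2428 and 34 to 1842. Differences that had not passed turned sign, over a range of -0.71 to 0.03 for Pfkfb4 under Ntn1 knock-down, -0.04 to 1.04 for Pfkfb4, -0.07 to 0.88 for Car12 and -0.21 to 0.10 for P4ha1 under Unc5b knock-down, and -0.12 to 0.99 for Aldoc between the knock-downs. The cause was not tested. The summed glycolytic level in the Ntn1 knock-down over the empty vector was 1.12, 1.108 with TMM scaling and 1.115 without Pkm; in the Unc5b knock-down it was 0.959, 0.932 and 0.963. Isozyme shares do not change with scaling, and leaving out a gene was not run for them.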

Other observations

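Genes outside the 41 members and below the level for testing included Vldlr, the very low density lipoprotein receptor gene and a known hypoxia target. It was at 2 in both empty vector libraries, at 48 and 46 in the Ntn1 knock-down and listed at 0 in both Unc5b knock-down libraries. Pdk4, a further pyruvate dehydrogenase kinase gene, was at 16 and 34 in the empty vector, 2 and 0 in the Ntn1 knock-down and 0 in both Unc5b knock-down libraries. Both were chosen after their values were seen and were not tested. Adm, Stc2 and Ppp1r3c, other hypoxia targets, were listed at 0 in all 6 libraries.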
